A study of Mus musculus with 6 samples.

Results

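The 37 genes described here encode proteins of the blood clotting and complement systems, nearly all of them made and secreted by the liver. They were chosen by gene symbol from a fixed list, 19 for coagulation and 18 for complement, and their rows were taken from the 55491 genes listed in the expression table. The list was drawn up with earlier results of these data known. Counts and medians over it therefore describe these livers and are not an independent test. All 37 had a row, and all 37 passed the filter on low values (0.5 FPKM or more on average over the 6 livers), which left 13943 genes to be tested. FPKM counts fragments relative to transcript length and library depth, so levels can be set side by side between genes. Fold changes are given on the scale of log2(FPKM + 0.1), which understates the change of low genes.

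Clotting proceeds as a cascade in which each serine protease cuts and activates the next, from the contact system or tissue factor down to thrombin, which turns fibrinogen into fibrin. Complement is a related cascade that starts by the classical, lectin or alternative route, meets at C3 and ends in the membrane attack complex. Hepatocytes are the main source of most of these plasma proteins, several of which are also acute phase proteins whose synthesis follows interleukin 6 and STAT3, while the first classical component, C1q, is made mainly by macrophages.

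The livers came from mice with Chrna2, the gene of a nicotinic acetylcholine receptor subunit, deleted by a Cre recombinase under the albumin promoter (Chrna2fl/fl;AlbCre, n = 3, called mutant), and from Chrna2fl/fl littermates without Cre (n = 3, called control). The albumin promoter is active in hepatocytes, and the paper describes the knockout as restricted to them. Whether other liver cells kept the floxed gene cannot be read from whole liver RNA. The floxed gene was made by CRISPR, and both groups carried it. Both groups received a high-fat diet (HFD, 60% of its calories as fat) over 4 weeks, started at 7 to 10 weeks of age, with carbon tetrachloride (CCl4, 0.5 μl/g) injected 2 times per week during the later weeks to produce liver injury with fibrosis. The letters a, b and c name the livers of each group and are used below to order the values.

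Chrna2 itself was at 0.36, 0.03 and 0.32 FPKM in the mutant livers and at 1.24, 1.20 and 2.64 FPKM in the control livers. The Cre transgene was at 3.31, 2.76 and 4.34 FPKM in the mutant livers and listed at 0 in every control liver, so both genes went with the labels. Sequencing depth, estimated from the step size of the lowest FPKM values, was 9.17 to 9.41 M fragments in mutant libraries and 17.24 to 18.06 M fragments in control libraries. Genotype and depth therefore did not overlap, and any batch behind the depth cannot be told apart from the genotype. Whether this depth gap has a part in the values below was not tested. The lowest value of any member rested on about 31 fragments (C5ar1), and that of any other member on about 607 (C2).

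The members spanned a wide range of levels. Fibrinogen led, with Fga at 4191 ± 691 FPKM in mutant livers and 4012 ± 463 FPKM in control livers (mean ± SD, n = 3 each, as throughout). C3, the convergence point of complement, followed Fgg at 1960.0 ± 146 FPKM in mutant livers and 2001 ± 448 FPKM in control livers. Antithrombin (Serpinc1), prothrombin (F2), plasminogen (Plg) and kininogen (Kng1) were also among the 8 most abundant members, and Pros1, C2 and Masp1 were the least abundant apart from C5ar1. C5ar1, the receptor of the anaphylatoxin C5a, stood far below every other member at 2.73 ± 0.127 FPKM in mutant livers and 1.34 ± 0.768 FPKM in control livers. It is a receptor of myeloid cells and not a plasma protein, and the label of proteins made in liver fits the other 36 better than it. The coagulation members together made up 1.93, 2.20 and 2.19% of all FPKM in the mutant livers, against 2.18, 2.15 and 2.02% in the control livers, and these groups overlapped. The complement members made up 0.789, 0.720 and 0.777% in the mutant livers, against 0.877, 0.824 and 0.785% in the control livers, where only mutant a lay above the lowest control liver.

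**Figure D1:**
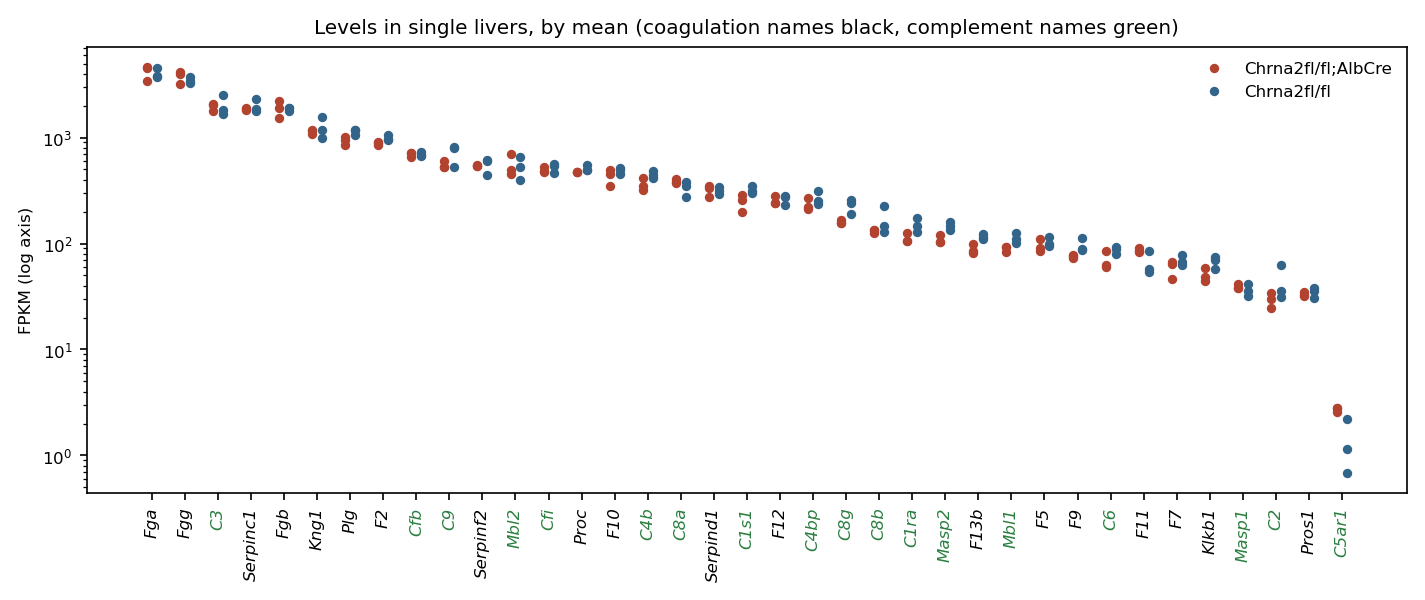
FPKM of each of the 37 genes in single livers (log axis), ordered by the mean over 6 livers, with mutant livers in red on the left and control livers in blue on the right of each gene. The points of both genotypes lie close together for nearly every gene, from Fga, at a mean of 4191 FPKM in mutant and 4012 FPKM in control livers, down to C5ar1, at 2.73 FPKM in mutant and 1.34 FPKM in control livers.

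Most of the chosen clotting and complement members leaned lower in the mutant livers by small amounts, and no member passed the test. The ratio of summed FPKM, mutant over control, was 0.99 for coagulation and 0.914 for complement members. Genes of these systems outside the members did not all lean this way. The other listed coagulation factors were above 0 in 7 of 7 and other complement components in 8 of 12, while 7 of 11 complement regulators were below 0. Of the 37 members, 27 had a log2 fold change below 0, 13 of 19 for coagulation and 14 of 18 for complement, whereas 29.7% of all genes tested were below 0. The median log2 fold change was -0.10 over the coagulation members and -0.31 over the complement members, beside 0.19 over all genes tested. Relative to that shift of all genes the medians were -0.28 and -0.50. Under median-ratio scaling, which brings the shift to 0.01, they were also -0.28 and -0.50. That scaling divides each library by a single factor and so moves nearly all genes alike. The match between these values is therefore built in and adds no support. In limma with Benjamini-Hochberg adjustment over all genes, 0 members and 0 genes in all (0.0% higher and 0.0% lower) had an adjusted p under 0.05, and the smallest adjusted p of a member was 0.255 for C8g and Masp2.

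At an unadjusted p under 0.05, 3 coagulation members (Klkb1, F9 and F13b) and 4 complement members (C1ra, Mbl1, Masp2 and C8g) were lower, where 3.02% of all genes tested were. In the other direction 0 coagulation members and 1 complement member (C5ar1) were higher, where 13.2% of all genes were. In 5 coagulation members (F2, F9, F13b, Proc and Plg) and 5 complement members (C1ra, C1s1, Mbl1, Masp2 and C8g) all mutant livers were below all control livers, which held for 4.34% of all genes. Only C5ar1 had every mutant liver above every control liver, which held for 18.7% of all genes. Abundant genes differ from the rest in this: among the 2296 other genes that averaged 33.9 FPKM or more, the level of the second-lowest member, the median log2 fold change was 0.10, 40.5% were below 0 and 11.1% had all mutant livers below all control livers. The counts rested on few livers. Without mutant b, 0 coagulation members were lower at this p, and without mutant c, control a or control c, 1 was. For complement, 2 were lower without control c. Without control b, 8 complement members lay below every control liver, and without mutant a, 3 coagulation members lay above every control liver. Under median-ratio scaling 6 coagulation and 8 complement members were lower at this p, and 8 and 10 lay below every control liver. With 3 against 3 livers no exact two-sided permutation p can go under 0.1.

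**Figure D2:**
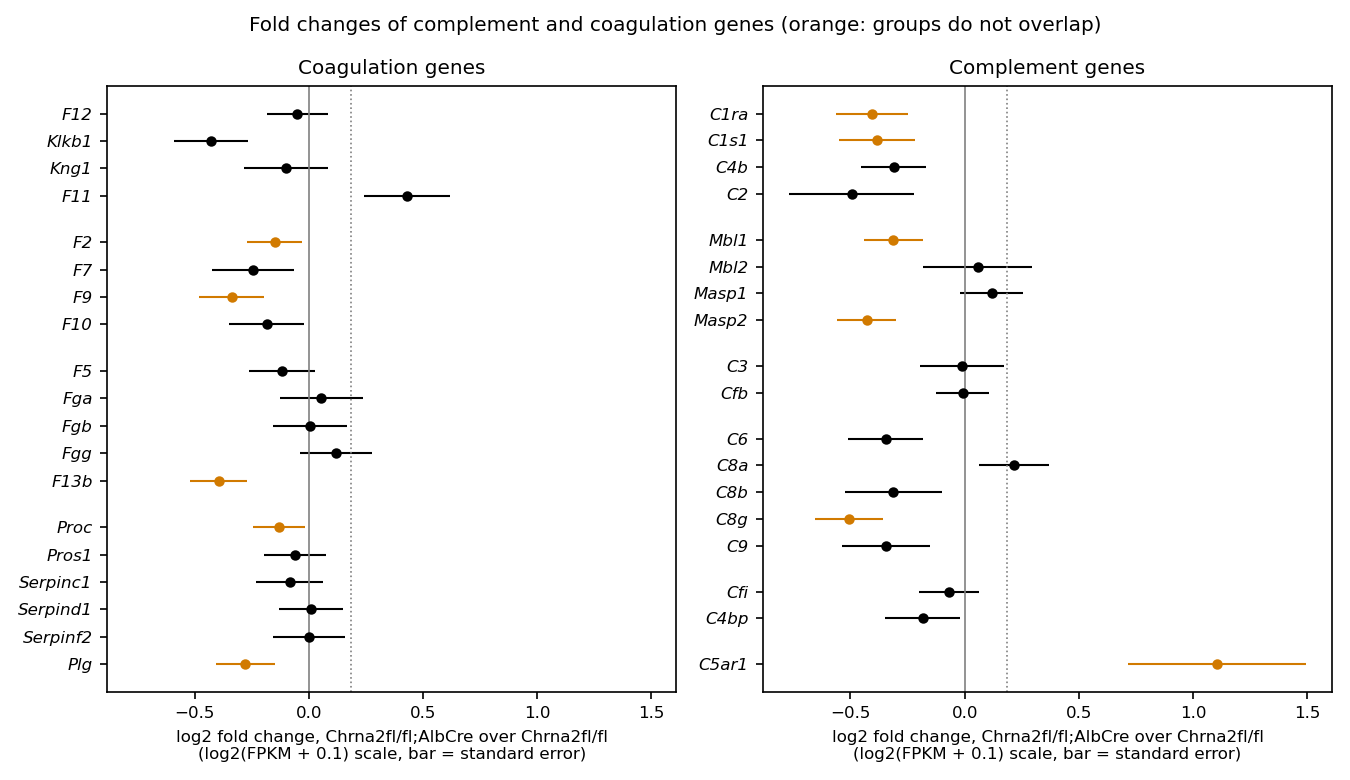
Log2 fold change of each gene, mutant over control, with its standard error from limma, coagulation on the left and complement on the right, ordered by role. The solid line marks 0 and the dotted line the median of all genes tested (0.19). Orange points are the 11 genes whose groups do not overlap, of which C5ar1 alone lies to the right of 0.

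Marker genes of most other liver cells leaned higher in the mutant livers. Of all genes tested 70.3% were above 0, with a median of 0.19. Log2 fold changes of hepatocyte markers were below 0 in 8 of 10, with a median log2 fold change of -0.33 and a summed level of 62370 to 76480 FPKM in mutant livers and 59610 to 87880 FPKM in control livers, a sum that Alb leads. The 2 above 0 were Ahsg (0.39) and Apoa1 (0.20). The lowest were the enzyme genes Cyp2e1 (-2.19), Ass1 (-0.71), Pck1 (-0.57) and Cps1 (-0.38). Ttr and Apoh were at -0.34 and -0.33, and Alb (-0.11) and Apob (-0.07) were near 0. The markers thus differed widely among themselves. A further hepatocyte marker, transferrin (Trf), was not in that list under this symbol, and it was also above 0. It was at 14332, 18768 and 18537 FPKM in the mutant livers, against 15433, 14902 and 8821 FPKM in the control livers (log2 fold change 0.43, SE 0.26). Log2 fold changes of macrophage markers were above 0 in 12 of 12, with a median of 0.88. Their summed level was 338 to 606 FPKM in mutant livers and 197 to 346 FPKM in control livers. Stellate cell and myofibroblast markers were above 0 in 8 of 8 with a median of 1.13, and sinusoidal endothelial markers in 8 of 8 with a median of 0.66. Neutrophil markers had a median of 0.01 over the 4 tested of 7, and cholangiocyte markers were above 0 in 5 of 5 with a median of 0.79. Relative to all genes tested the medians were 0.70 for macrophage, 0.95 for stellate cell, 0.47 for endothelial and 0.60 for cholangiocyte markers. They were -0.18 for neutrophil and -0.52 for hepatocyte markers. The part of the other cells in those hepatocyte transcripts that were lower was not tested. In bulk tissue, fewer hepatocytes and less RNA of a gene per hepatocyte cannot be told apart.

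The contact system starts clotting on negatively charged surfaces, and its 4 genes did not move together. Klkb1, plasma prekallikrein, was at 58.3, 48.3 and 44.2 FPKM in the mutant livers, against 57.4, 70.6 and 74.8 FPKM in the control livers. Mutant a alone lay above the lowest control liver, so the groups overlapped, and the log2 fold change was -0.43 (SE 0.16, limma unadjusted p = 0.0327, adjusted p = 0.285). F11, factor XI, is a close relative of prekallikrein that activates factor IX. It was at 85.0, 83.2 and 91.8 FPKM in the mutant livers, against 58.0, 84.9 and 53.8 FPKM in the control livers, a log2 fold change of 0.43 (SE 0.19, limma adjusted p = 0.313). Control b, at 84.9 FPKM, lay among the mutant livers, whereas the other control livers lay well below them. Without control b the limma adjusted p of F11 was 0.0662, the smallest of any member under any setting tried. In that setting 111 of 13988 genes had an adjusted p under 0.05, beside 0 with all livers. F12, which starts contact activation, averaged 254 ± 22.5 FPKM in mutant livers and 264 ± 27.2 FPKM in control livers. Kng1, the kininogen from which bradykinin is released, averaged 1140.0 ± 60.01 FPKM in mutant livers and 1242 ± 288 FPKM in control livers. Its paralog Kng2 averaged 239.5 ± 20.3 FPKM in mutant livers and 232 ± 37.5 FPKM in control livers, and reads of the pair could be split by the counting.

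F11 and Klkb1 lie next to each other on the minus strand of GRCm38, F11 at chr8:45241174-45262031 and Klkb1 at chr8:45266689-45294859. Klkb1 shares its strand there with the predicted gene Gm45753, whose means were 1.51 FPKM in mutant livers and 1.26 FPKM in control livers. The ratio of F11 to Klkb1 within a liver, chosen after the values were seen, was 1.46, 1.72 and 2.08 in the mutant livers and 1.01, 1.20 and 0.719 in the control livers. Every mutant liver was above every control liver in this ratio. The promoters of the pair are shown because these neighbours had fold changes of opposite sign. Each is 250 bases before and 50 after the start of transcription in RefSeq on GRCm38.p6, read 5′ to 3′ along the gene, F11 from chr8:45261982-45262281 and Klkb1 from chr8:45294786-45295085, both on the minus strand. Capitals mark letters of TTGCNNAA on either strand, the pattern searched for the C/EBP factors.
F11: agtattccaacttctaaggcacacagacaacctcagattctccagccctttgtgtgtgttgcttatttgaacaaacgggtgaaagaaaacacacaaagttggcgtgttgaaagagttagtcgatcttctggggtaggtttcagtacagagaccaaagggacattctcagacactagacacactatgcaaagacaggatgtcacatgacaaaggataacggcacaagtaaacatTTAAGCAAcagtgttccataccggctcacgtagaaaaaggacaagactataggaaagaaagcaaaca
Klkb1: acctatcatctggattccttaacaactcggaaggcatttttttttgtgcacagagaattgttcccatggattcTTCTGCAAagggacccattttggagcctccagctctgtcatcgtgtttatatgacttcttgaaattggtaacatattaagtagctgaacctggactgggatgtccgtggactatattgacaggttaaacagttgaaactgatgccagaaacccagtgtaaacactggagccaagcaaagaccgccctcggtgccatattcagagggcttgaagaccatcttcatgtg
Each window held that pattern 1 time and none of the other patterns searched, and the letters say nothing of whether a factor binds there.

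The 4 vitamin K-dependent clotting proteases were all below 0, with a median of -0.22. F2, prothrombin, was at 898, 900.5 and 858 FPKM in the mutant livers, against 1049, 939.9 and 961 FPKM in the control livers. The groups did not overlap, yet the gap was small, with a log2 fold change of -0.15 (SE 0.12, limma unadjusted p = 0.247, adjusted p = 0.527). F9, factor IX, whose loss causes haemophilia B, was at 77.9, 72.8 and 76.6 FPKM in the mutant livers, against 88.2, 87.8 and 113 FPKM in the control livers. Here the mutant livers were tightly grouped and control c stood apart upward, and the log2 fold change was -0.34 (SE 0.14, unadjusted p = 0.0460, adjusted p = 0.303, limma). F7, the partner of tissue factor, averaged 59.2 ± 11.6 FPKM in mutant livers and 69.5 ± 7.62 FPKM in control livers. F10, which cuts prothrombin, averaged 433 ± 77.0 FPKM in mutant livers and 488 ± 33.7 FPKM in control livers. Both overlapped between the groups, and mutant c was the lowest liver in each. F7 and F10 lie in a row on chr8, at chr8:13026034-13035809 and chr8:13037308-13056676, both on the plus strand, and their log2 fold changes of -0.25 and -0.18 had the same sign.

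Fibrinogen, the precursor of fibrin, is built from 3 chains, and its genes did not differ between the groups beyond the spread of the livers. Fga was at 3393, 4610.1 and 4569 FPKM in the mutant livers, against 3702, 4545 and 3788 FPKM in the control livers. Fgb was at 1545, 1914 and 2199 FPKM in the mutant livers, against 1781, 1903 and 1898 FPKM in the control livers. Fgg was at 3228, 3977 and 4174 FPKM in the mutant livers, against 3290.0, 3730.1 and 3403 FPKM in the control livers. Mutant a was the lowest of all 6 livers for each chain, and the other mutant livers were above the highest control liver for each. The log2 fold changes were 0.06 (SE 0.18) for Fga, 0.01 (SE 0.16) for Fgb and 0.12 (SE 0.16) for Fgg, and they turned to -0.13, -0.18 and -0.07 under median-ratio scaling. The limma unadjusted and adjusted p were 0.769 and 0.885 for Fga, 0.976 and 0.990 for Fgb, and 0.467 and 0.695 for Fgg. The chains kept nearly the same proportions in all livers. Fga over Fgb was 2.20, 2.41 and 2.08 in the mutant livers and 2.08, 2.39 and 1.996 in the control livers. Fga over Fgg was 1.05, 1.16 and 1.09 in the mutant livers and 1.13, 1.22 and 1.11 in the control livers.

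**Figure D3:**
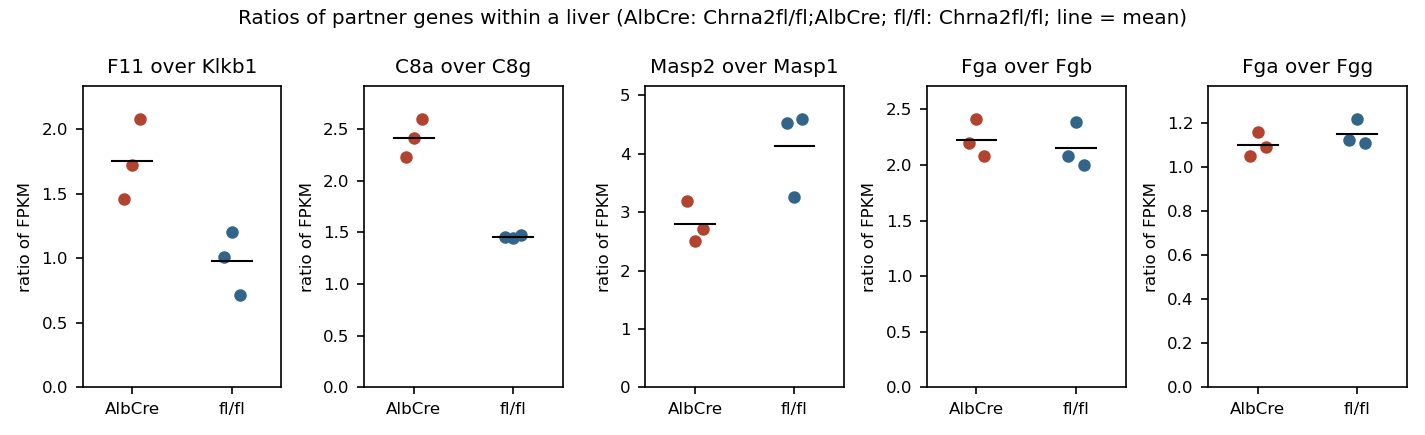
Ratio of the FPKM of 2 partner genes within each liver, mutant livers in red on the left and control livers in blue on the right, with lines at the group means and axes from 0. The ratios of F11 over Klkb1 and C8a over C8g are higher in every mutant liver than in any control liver, Masp2 over Masp1 is lower in every mutant liver, and the fibrinogen ratios overlap.

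The fibrinogen genes form a cluster on chr3, Fgg at chr3:83007724-83015049 and Fga at chr3:83026076-83033627 on the plus strand and Fgb at chr3:83040141-83049863 on the minus strand. Their promoters are shown because the 3 genes kept nearly the same proportions from liver to liver. The windows are chr3:83025903-83026202 on the plus strand for Fga, chr3:83049814-83050113 on the minus strand for Fgb and chr3:83007474-83007773 on the plus strand for Fgg, again from RefSeq on GRCm38.p6. Capitals mark letters of GTTAAT (HNF1), TTGCNNAA (C/EBP) or TTCNNNGAA (STAT) on either strand.
Fga: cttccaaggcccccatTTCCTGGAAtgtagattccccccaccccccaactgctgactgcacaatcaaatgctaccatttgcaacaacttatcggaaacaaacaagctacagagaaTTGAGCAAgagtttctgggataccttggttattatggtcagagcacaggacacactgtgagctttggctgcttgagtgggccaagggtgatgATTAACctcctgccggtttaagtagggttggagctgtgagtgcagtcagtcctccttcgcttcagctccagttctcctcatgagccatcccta
Fgb: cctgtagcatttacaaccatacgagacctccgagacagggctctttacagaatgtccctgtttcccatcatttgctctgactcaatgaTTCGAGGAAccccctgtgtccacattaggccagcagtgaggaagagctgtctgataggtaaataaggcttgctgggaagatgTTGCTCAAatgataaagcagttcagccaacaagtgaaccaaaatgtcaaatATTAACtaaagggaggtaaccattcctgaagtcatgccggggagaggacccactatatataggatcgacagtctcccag
Fgg: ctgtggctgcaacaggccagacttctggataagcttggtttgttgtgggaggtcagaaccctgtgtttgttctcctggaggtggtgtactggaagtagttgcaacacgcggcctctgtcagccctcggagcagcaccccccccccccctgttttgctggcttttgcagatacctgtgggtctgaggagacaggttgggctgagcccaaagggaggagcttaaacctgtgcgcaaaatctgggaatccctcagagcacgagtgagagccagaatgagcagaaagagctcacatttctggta
Fga and Fgb each held 1 match to each of these patterns, and Fgg held none in its window. None of the 3 held CAAAGTCCA, the letters searched for HNF4A.

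F13b, the carrier subunit of the fibrin-crosslinking factor XIII, had the smallest p of the coagulation members. It was at 98.1, 81.8 and 84.5 FPKM in the mutant livers, against 122, 110.4 and 114 FPKM in the control livers. All mutant livers were below all control livers, with a log2 fold change of -0.39 (SE 0.12, limma unadjusted p = 0.0153, adjusted p = 0.262). The catalytic subunit gene F13a1, expressed mainly by macrophages and platelets, averaged 1.07 ± 0.768 FPKM in mutant livers and 0.56 ± 0.42 FPKM in control livers. F5, the cofactor of factor X, averaged 95.4 ± 12.7 FPKM in mutant livers and 103 ± 9.99 FPKM in control livers, with overlapping groups.

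Inhibitors of clotting were nearly level between the groups, and plasminogen was the exception among the members that limit or dissolve clots. Plg, whose product plasmin digests fibrin, was at 1004, 947 and 857 FPKM in the mutant livers, against 1169, 1055 and 1177 FPKM in the control livers. The groups did not overlap, with a log2 fold change of -0.28 (SE 0.13, limma unadjusted p = 0.0670, adjusted p = 0.331). Proc, protein C, which inactivates factors V and VIII, was at 472, 471 and 473 FPKM in the mutant livers, against 497, 499.6 and 553 FPKM in the control livers. The mutant livers were nearly identical and all lay below the control livers by a small margin (log2 fold change -0.13, SE 0.11, limma unadjusted p = 0.296, adjusted p = 0.565). Serpinc1, antithrombin, was at 1871, 1904 and 1823 FPKM in the mutant livers, against 2324, 1772 and 1878 FPKM in the control livers, with control a apart upward. Its log2 fold change was -0.08 (SE 0.15, limma unadjusted p = 0.589, adjusted p = 0.779) and turned to 0.01 under quantile normalization. The other inhibitors overlapped as well. Pros1, protein S and the cofactor of protein C, averaged 33.1 ± 1.71 FPKM in mutant livers and 34.6 ± 3.95 FPKM in control livers. Heparin cofactor II (Serpind1) averaged 318 ± 39.5 FPKM in mutant livers and 315 ± 23.3 FPKM in control livers. Alpha-2-antiplasmin (Serpinf2), the inhibitor of plasmin, averaged 546 ± 10.3 FPKM in mutant livers and 551 ± 95.5 FPKM in control livers.

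**Figure D4:**
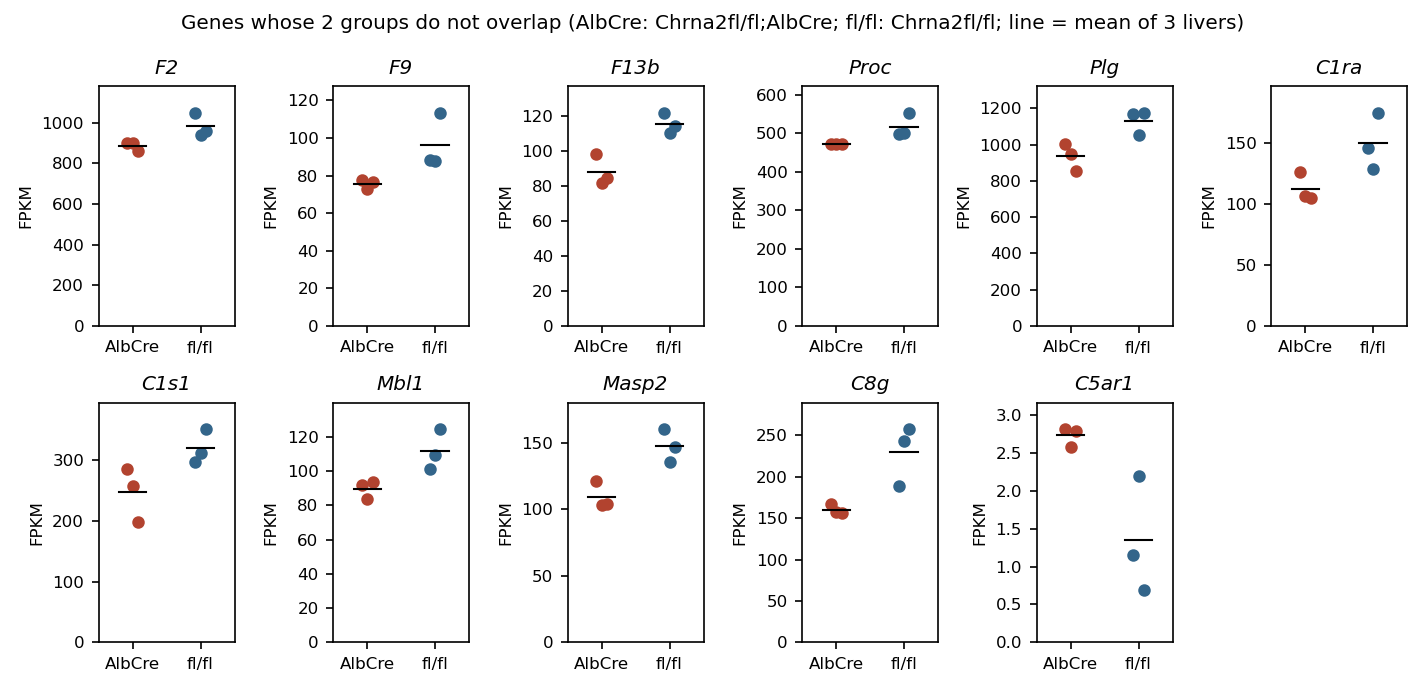
FPKM in single livers of the 11 genes whose groups do not overlap, with mutant livers in red on the left, control livers in blue on the right, lines at the means of 3 livers and axes from 0. In 10 genes the mutant livers lie lower, by a narrow gap in Proc and a wider gap in C8g and Masp2, and in C5ar1 they lie higher at about 2.58 to 2.81 FPKM.

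Other genes of clotting and fibrinolysis were mostly above 0, as were 70.3% of all genes tested. Among 7 other genes listed with the coagulation factors, at an unadjusted p under 0.05 there was 1 higher, a share near the 13.2% of all genes. At the same p 0 were lower. The median log2 fold change was 0.46, or 0.28 relative to all genes tested. The gene that passed was Fgl1, a fibrinogen-like protein secreted by hepatocytes, at 1295 ± 59.9 FPKM in mutant livers and 953 ± 199.5 FPKM in control livers. The log2 fold change of Fgl1 (0.46) was also the median of this list. Among the 18 of 21 other anticoagulant and fibrinolysis genes that were tested, 4 were higher and 1 was lower at this p. Over all genes tested 13.2% were higher and 3.02% lower. The median of the list was 0.54, or 0.36 relative to all genes tested. Plau, the urokinase plasminogen activator, averaged 4.63 ± 1.23 FPKM in mutant livers and 1.56 ± 1.44 FPKM in control livers (log2 fold change 1.89, SE 0.64, limma adjusted p = 0.271). Anxa2, a cell surface receptor of plasminogen, averaged 110.5 ± 19.5 FPKM in mutant livers and 41.4 ± 32.8 FPKM in control livers (log2 fold change 1.79, SE 0.61, limma adjusted p = 0.272). Both genes are also expressed by cells other than hepatocytes, whose markers were higher in the mutant livers as given above, and the part of those cells was not tested.

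Genes that modify and export clotting factors had log2 fold changes above 0 in 6 of 7, where 70.3% of all genes tested were, with 3 higher (13.2% of all genes) and 0 lower by an unadjusted p under 0.05 and a median of 0.26, or 0.07 relative to all genes tested. Mcfd2, which with Lman1 carries factors V and VIII out of the endoplasmic reticulum, was at 207, 213 and 239 FPKM in the mutant livers, against 150.98, 169.6 and 115 FPKM in the control livers. Lman1 was at 129, 121 and 101 FPKM in the mutant livers, against 63.8, 90.3 and 79.0 FPKM in the control livers. Vkorc1l1, a vitamin K epoxide reductase, was at 20.2, 28.5 and 22.9 FPKM in the mutant livers, against 14.97, 17.8 and 14.4 FPKM in the control livers. In all 3 genes every mutant liver was above every control liver, and each had a limma adjusted p of 0.255. The genes of the 2 cargo proteins differed in sign, with log2 fold changes of -0.12 for F5 and 0.65 (SE 0.53) for F8. F8 was low, at 1.51 ± 0.682 FPKM in mutant livers and 0.96 ± 0.619 FPKM in control livers. Of 9 platelet and thrombin receptor genes only 3 passed the filter, and 0 were higher or lower at an unadjusted p under 0.05. The smallest p was that of Itga2b, at 1.85 ± 0.820 FPKM in mutant livers and 2.62 ± 0.472 FPKM in control livers, with a log2 fold change of -0.56. Of 6 megakaryocyte and platelet markers 3 were tested, and 2 of these were above 0, with a median of 0.70. The tested marker below 0 was Itga2b, at the -0.56 just given, so these markers did not share a sign. Pf4 and Ppbp are named here after their values were seen. Pf4, platelet factor 4, was at 10.7, 14.3 and 8.45 FPKM in the mutant livers, against 3.70, 8.03 and 1.84 FPKM in the control livers, all mutant livers higher (log2 fold change 1.49, SE 0.49, limma unadjusted p = 0.0179, adjusted p = 0.269). Ppbp had a log2 fold change of 0.70, and the platelet genes Treml1 and Gp6 were each listed at 0 in 5 of 6 livers.

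The classical route of complement begins with C1r and C1s, the proteases carried by C1q, which cut C4 and C2. All 4 of these members were below 0, with a median of -0.39. C1ra was at 127, 106 and 105 FPKM in the mutant livers, against 146, 129 and 175 FPKM in the control livers. C1s1 was at 286, 259 and 199 FPKM in the mutant livers, against 297, 313 and 352 FPKM in the control livers. Neither gene had overlapping groups, with mutant c the lowest liver and control c the highest in both. The log2 fold change was -0.41 for C1ra (SE 0.16, limma unadjusted p = 0.0342, adjusted p = 0.287) and -0.38 for C1s1 (SE 0.17, unadjusted p = 0.0528, adjusted p = 0.312). C2 averaged 29.6 ± 4.95 FPKM in mutant livers and 43.4 ± 17.2 FPKM in control livers, with control c at 63.1 FPKM apart from the other livers. C2 and Cfb share their strand with the read-through gene Gm20547 on chr17, so the counting could split reads among them. The paralogs C1rb and C1s2 reached at most 0.12 FPKM in any liver.

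C4b, which encodes complement C4, averaged 363 ± 46.7 FPKM in mutant livers and 449 ± 37.8 FPKM in control livers, with overlap through mutant b and control b. Its near-identical neighbour C4a was at 29.9, 32.5 and 19.8 FPKM in the mutant livers, against 76.5, 33.4 and 63.5 FPKM in the control livers (log2 fold change -1.02, SE 0.33, limma adjusted p = 0.267). Mutant b and control b again nearly met in C4a. Since the counting could divide reads between the copies, the summed level is the safer value, and it was 381, 447 and 343 FPKM in the mutant livers, against 520.5, 447 and 552 FPKM in the control livers, with overlap. The C1q chains had the opposite sign from the proteases they carry. C1qa was at 89.96, 221 and 120.2 FPKM in the mutant livers, against 72.8, 111 and 60.5 FPKM in the control livers, with mutant b far above the rest. C1qb and C1qc had log2 fold changes of 0.78 (SE 0.34) and 0.73 (SE 0.35), with limma adjusted p of 0.320 and 0.343. The groups overlapped in each chain. The summed chains over C1ra plus C1s1 overlapped too, at 0.527, 1.38 and 0.872 in the mutant livers and 0.411, 0.561 and 0.251 in the control livers. Mutant b was also the highest liver in the summed macrophage markers.

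**Figure D5:**
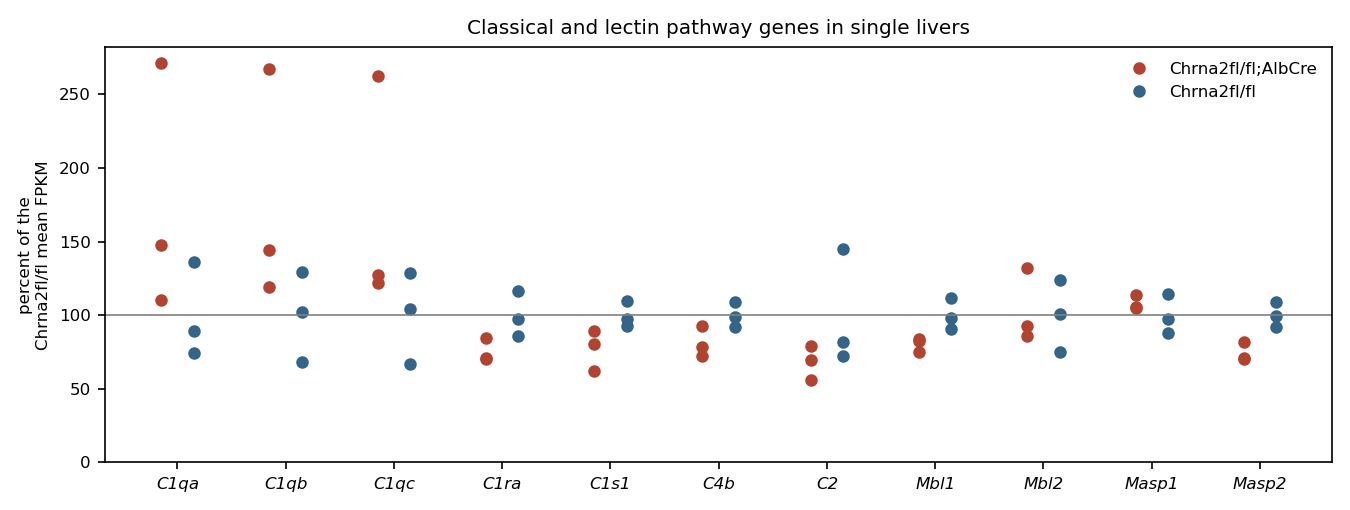
FPKM of classical and lectin pathway genes in single livers, as percent of the mean of the control livers, with mutant livers in red on the left and control livers in blue on the right of each gene. The C1q chains reach the highest percentages in mutant b, at 221 FPKM for C1qa, while C1ra, C1s1, Mbl1 and Masp2 lie below the control livers in every mutant liver.

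The lectin route is started by mannose-binding lectins and their proteases, and its 4 members split. Mbl1, mannose-binding lectin A, was at 92.0, 83.6 and 93.3 FPKM in the mutant livers, against 101, 109 and 124 FPKM in the control livers, without overlap. The log2 fold change was -0.31 (SE 0.13, limma unadjusted p = 0.0447, adjusted p = 0.2996). Mbl2, the more abundant lectin, ranged from 454 to 699 FPKM in mutant livers and from 397 to 655 FPKM in control livers. Masp2, the protease that cuts C4 in this route, was at 121, 104 and 104 FPKM in the mutant livers, against 160.3, 136 and 147 FPKM in the control livers. All mutant livers were lower, with a log2 fold change of -0.43 (SE 0.13, limma unadjusted p = 0.0121, adjusted p = 0.255), and with array weights the adjusted p was 0.0864. Masp1, the protease that activates MASP-2, averaged 39.2 ± 1.74 FPKM in mutant livers and 36.3 ± 4.87 FPKM in control livers. The ratio of Masp2 to Masp1 within a liver, also chosen after the values were seen, was 3.19, 2.51 and 2.72 in the mutant livers and 4.54, 3.26 and 4.59 in the control livers. Masp2 overlaps Tardbp on the opposite strand, which averaged 112 FPKM in mutant livers and 75.4 FPKM in control livers. The libraries were directional, but whether the counting used the strand is not given in the sources used here.

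The centre of the cascade was nearly level between the groups. C3 was at 2010.4, 1795 and 2074 FPKM in the mutant livers, against 2510.4, 1825 and 1667 FPKM in the control livers. Control a was the highest and control c the lowest of all 6 livers, so the mutant livers lay within the control range (log2 fold change -0.01, SE 0.18, limma unadjusted p = 0.959, adjusted p = 0.983). The log2 fold change turned to 0.07 under quantile normalization. Cfb, factor B, the protease of the alternative route, was at 709.6, 658 and 708 FPKM in the mutant livers, against 728, 686 and 675 FPKM in the control livers (log2 fold change -0.01, SE 0.12, limma unadjusted p = 0.941, adjusted p = 0.975). Its livers spanned a narrow range in both groups.

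The membrane attack complex is assembled from C5b to C9, and 4 of its 5 members were below 0. C8g, the lipocalin chain of C8, had the smallest p of all members. It was at 166, 158 and 156 FPKM in the mutant livers, against 188, 243 and 257 FPKM in the control livers, with no overlap (log2 fold change -0.51, SE 0.15, limma unadjusted p = 0.0106, adjusted p = 0.255). C8a, the alpha chain to which C8 gamma is bound, was at 370.2, 379.9 and 403 FPKM in the mutant livers, against 273, 352 and 379 FPKM in the control livers, a log2 fold change of 0.21 (SE 0.15) with overlap. The ratio of C8a to C8g within a liver, chosen after the values were seen, was 2.22, 2.41 and 2.59 in the mutant livers and 1.45, 1.45 and 1.47 in the control livers. Control livers were almost equal in this ratio and all mutant livers lay above them. C8b, the beta chain, averaged 131 ± 4.74 FPKM in mutant livers and 168 ± 52.6 FPKM in control livers, with control c at 227 FPKM apart from the rest. C8g overlaps Fbxw5 on the opposite strand, which averaged 23.8 FPKM in mutant livers and 25.2 FPKM in control livers.

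C9, which forms the pore, was at 529.5, 528 and 596 FPKM in the mutant livers, against 528, 799.8 and 809 FPKM in the control livers. Control a lay with the mutant livers and the other control livers well above them (log2 fold change -0.34, SE 0.19, limma unadjusted p = 0.113, adjusted p = 0.389). C6 averaged 68.8 ± 13.5 FPKM in mutant livers and 86.6 ± 6.82 FPKM in control livers. The groups overlapped through mutant c at 84.3 FPKM. Hc, the mouse gene of C5, averaged 320.2 ± 20.2 FPKM in mutant livers and 356 ± 57.1 FPKM in control livers, with overlap.

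The soluble regulators among the members overlapped between the groups. Cfi, factor I, which cuts C3b and C4b, averaged 496 ± 26.0 FPKM in mutant livers and 521 ± 52.1 FPKM in control livers. C4bp, the C4b-binding protein, averaged 234 ± 32.4 FPKM in mutant livers and 266 ± 40.9 FPKM in control livers. C5ar1 was at 2.81, 2.58 and 2.79 FPKM in the mutant livers, against 1.15, 2.19 and 0.69 FPKM in the control livers. It was the sole member with all mutant livers higher, with a log2 fold change of 1.11 (SE 0.39, limma unadjusted p = 0.0241, adjusted p = 0.277). Its unadjusted p was over 0.05 when mutant a, mutant b, mutant c, control a or control c was left out. The other complement receptors listed were above 0 in 5 of 5 tested of 7, beside 70.3% of all genes tested. By an unadjusted p under 0.05, 3 were higher and 0 lower, beside 13.2% and 3.02% of all genes. Their median was 0.96, or 0.78 relative to all genes tested. Itgam, a chain of complement receptor 3, averaged 3.51 ± 1.01 FPKM in mutant livers and 1.24 ± 0.681 FPKM in control livers. Itgb2, its partner chain, averaged 8.39 ± 2.40 FPKM in mutant livers and 4.33 ± 2.71 FPKM in control livers. C3ar1, the receptor of C3a, averaged 4.74 ± 1.40 FPKM in mutant livers and 2.54 ± 1.31 FPKM in control livers. Macrophage markers, among which Itgam is counted, were higher in the same livers, and their part in these receptors was not tested.

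Among the 12 of 17 other complement components that were tested, 0 were higher and 3 were lower at an unadjusted p under 0.05. Over all genes tested 13.2% were higher and 3.02% lower. The median of the list was 0.47, or 0.29 relative to all genes tested. C4a, given above, was among the 3. The 11 of 13 complement regulators tested had a median of -0.11. Among them 0 were higher and 1 was lower, beside the same shares of all genes. The 1 was Susd4, at 0.48, 0.52 and 0.83 FPKM in the mutant livers, against 3.77, 1.26 and 7.20 FPKM in the control livers.

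The member proteases of both cascades can be read as a group, a grouping made after the values were seen from genes already counted above. Of 16 member genes encoding serine proteases, 14 were below 0, beside 29.7% of all genes tested and 40.5% of the other genes as abundant as the members, with a median of -0.22, and the exceptions were F11 and Masp1, of which Masp1 turned to -0.07 under median-ratio scaling. In 7 of the 16 all mutant livers were below all control livers, beside 4.34% of all genes and 11.1% of the abundant ones. Plau, Plat, C1rl and Habp2, proteases of these systems outside the members, are not in this group. Their log2 fold changes were above 0, at 1.89, 1.085, 0.09 and 0.06.

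Transcription factors known to drive genes of this kind in hepatocytes also leaned lower by a small amount. Of 13 tested, 11 were below 0, beside 29.7% of all genes tested, with a median of -0.12, or -0.31 relative to all genes, and 0 were higher or lower at an unadjusted p under 0.05. Cebpb, a factor of the acute phase response, had the smallest p, at 105 ± 13.8 FPKM in mutant livers and 129.9 ± 19.6 FPKM in control livers. Of 9 tested of 11 genes of interleukin 6 and related signalling, 0 were higher and 1 was lower at this p, with a median of 0.01. Over all genes tested 13.2% were higher and 3.02% lower. Il6ra, the interleukin 6 receptor, was at 4.15, 7.23 and 5.96 FPKM in the mutant livers, against 10.1, 7.80 and 8.23 FPKM in the control livers (log2 fold change -0.61, SE 0.23, limma adjusted p = 0.285). Il6 itself was listed at 0 in 5 of 6 livers.

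RefSeq promoters of 300 bases were found for 29 members, 16 of coagulation and 13 of complement. On either strand, GTTAAT was present in 4 of 16 coagulation and 4 of 13 complement members, beside 7.10% of all 32851 promoters of the same length. TTGCNNAA was present in 6 of 16 and 4 of 13, beside 10.8% of all promoters. TTCNNNGAA was present in 4 of 16 and 3 of 13, beside 8.30%, and CAAAGTCCA in 0 of 16 and 0 of 13, beside 0.475%. These matches describe the letters in the windows and are not binding sites.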

How the data were processed

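Livers of 3 Chrna2fl/fl;AlbCre and 3 Chrna2fl/fl mice were sequenced as directional poly(A) libraries. The authors aligned reads to GRCm38 with STAR 2.7.8a and deposited gene FPKM from RSEM 1.3.3. No other scaling between libraries is given in the sources used here. The submitters' processing notes also name cutadapt 2.3, FastQC 0.11.8 and MultiQC 1.7.

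Depth was estimated from the step size of the lowest values, 87.0 to 89.6% of which were whole within 0.15 fragments. Genes averaging 0.5 FPKM or more were tested on log2(FPKM + 0.1) with limma 3.58.1 in R 4.3.3 (lmFit, eBayes with a trend, Benjamini-Hochberg adjustment, threshold 0.05), a script tested on simulated data. Each liver was taken as 1 mouse, and p-values measure only the spread between these samples. Members, lists and tests were chosen with earlier results of these data known. Full values are given for members with an unadjusted p under 0.05, without overlap, or among the 3 most abundant of each cascade. Of each other list, up to 3 genes with an unadjusted p under 0.05 are named by smallest p, or else the 1 with the smallest p, beside paralogs and partner genes (C4a, Hc, C1rb, C1s2, Kng2). The results of some genes that this rule names are not reported here. F11, Fgb and C8a, also given liver by liver, the C1q chains, F13a1, Trf, Pf4 and Ppbp, the other genes outside this rule and the within-liver ratios were chosen after their values were seen. Of the ratios formed but not printed, Mbl2 over Mbl1 and C4a over C4b overlapped between the groups. Others, such as C8a over C8b, did not. The hepatocyte marker Tf had no row under that symbol, and its mouse symbol Trf is given apart from the list. Alternatives were other pseudocounts, filters and scalings, limma without the trend, array weights, a replicate block and each liver left out in turn.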

Additional observations from a re-analysis of the deposited data

How the results depend on the processing

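No member had a limma adjusted p under 0.05 under any alternative, where 0 to 111 of all genes did. Members below 0 numbered 34 under median-ratio scaling, 29 under quantile normalization and 22 to 30 with each liver left out in turn. C5ar1 rested on the fewest fragments of the members, and counting error limits it most. The cause of the changes below was not tested.

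Under median-ratio scaling, 6 coagulation and 8 complement members were lower at an unadjusted p under 0.05, and 8 and 10 lay below every control liver. The medians became -0.28 and -0.50, and the ratios of summed FPKM, mutant over control, 0.871 for coagulation and 0.803 for complement. Quantile normalization gave 7 lower complement members. Limma without the trend gave 1 lower coagulation and 2 lower complement members. Array weights gave 1 higher coagulation member, 2 higher complement members and a coagulation median of -0.14. With a mean of at least 5 FPKM, C5ar1 was not tested, which left 0 complement members higher or above every control liver. With the replicate letter as a block, 1 coagulation and 2 complement members were lower. Whether the letters pair livers cannot be decided from these values, since each group had few livers. Same-letter deviations correlated at -0.02 for a, 0.06 for b and 0.02 for c. Mutant b and mutant c correlated best with the control liver of their own letter, and mutant a with control c (0.04). Control b correlated best with mutant b, whereas control a did so with mutant c (0.01) and control c with mutant a.

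With each liver left out in turn, coagulation members numbered 0 to 1 higher, 0 to 3 lower, 0 to 3 above and 5 to 7 below every control liver, with a median of -0.16 to -0.026. Complement members numbered 0 to 1 higher, 2 to 6 lower, 1 to 2 above and 5 to 8 below, with a median of -0.34 to -0.21. The ratios of summed FPKM ranged over 0.967 to 1.03 for coagulation and 0.900 to 0.937 for complement.

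Log2 fold changes turned to -0.13 for Fga, -0.18 for Fgb, -0.065 for Fgg, -0.18 for Serpind1, -0.18 for Serpinf2, -0.13 for Mbl2 and -0.067 for Masp1 under median-ratio scaling. Under quantile normalization they turned to 0.010 for Serpinc1, -0.070 for Serpind1, -0.026 for Serpinf2, -0.0091 for Mbl2, -0.015 for Masp1 and 0.067 for C3. Array weights gave -0.087 for Serpinf2. With each liver left out, log2 fold changes crossed 0 for F12 (-0.14 to 0.0031), Kng1 (-0.24 to 0.077), Fga (-0.021 to 0.20), Fgb (-0.11 to 0.14), Pros1 (-0.15 to 0.011), Serpinc1 (-0.16 to 0.033), Serpind1 (-0.056 to 0.12), Serpinf2 (-0.15 to 0.079), Mbl2 (-0.13 to 0.23), C3 (-0.13 to 0.17) and Cfb (-0.031 to 0.027). None of these members had an adjusted p under 0.05 in limma before or after.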
